A study of Homo sapiens with 12 samples.

Results

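The genes of the cytosolic ribosomal proteins were described across 3 lines of intrahepatic cholangiocarcinoma (ICC), a cancer of the bile ducts inside the liver. A row was taken when its symbol was RPL or RPS followed by digits and at most one of the letters A, X or L, or was RPLP0, RPLP1, RPLP2 or RPSA. This gave 82 of the 18815 rows of the table. A pair of these rows held identical values in every library and was counted once, which left 81 genes, 49 of the large subunit and 32 of the small subunit. All 81 passed the filter on low values, so none was left out of a test. The rule used names only and no measured value.

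The cell lines were HuH-28, RBE and SSP-25, each transfected with a scrambled control siRNA or with an siRNA against LKB1, the kinase encoded by STK11. RNA was taken 48 h later, and each of the 6 groups had 2 libraries, 12 in all. HuH-28 was grown in MEM and the other lines in RPMI1640, so the line and the medium cannot be told apart where HuH-28 is compared with the others. The knockdown was transient, no group carried an added transgene, and the study numbers the duplicates as the first and the second test but does not say whether these were separate cultures. The p-values thus measure the spread between duplicates, which may be technical. In the main fit this spread was pooled for each gene over the 6 groups. A call, or the lack of one, in a line thus also depends on the duplicates of the other lines.

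A ribosome reads messenger RNA in its small subunit and joins amino acids in its large subunit, and each subunit is built from ribosomal RNA and a fixed set of proteins. Most of these proteins are needed in equal numbers, and their mRNAs carry a run of pyrimidines at the 5′ end, the TOP tract, through which mTORC1 controls their translation and stability. LKB1 activates AMPK, a kinase that restrains mTORC1 when energy is low. These are facts of general knowledge and were not measured here.

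The start of a TOP mRNA was visible in most members. In the RefSeq promoter table (GRCh38.p14), 64 of the 81 members had an entry, and 42 of them, or 65.6%, had at the annotated start a C followed by at least 4 bases that were C or T. The same start was found in 5.04% of the 11733 tested genes with an entry and in 4.04% of all 27305 entries. With a start of up to 5 bases to either side allowed, the shares were 78.1% of members and 22.2% of tested genes. The letters CCGGAAG, searched on both strands in the 250 bases before the start, were in 29.7% of members and in 13.4% of tested genes. A match is a match of letters and not a mapped start or a bound factor. The windows below run from 8 bases before the annotated start to 22 bases into the transcript, 5′ to 3′ on the strand of the gene, and capitals mark the pyrimidine run. They are shown for RPS6, the substrate of the S6 kinases, for RPLP0, the most abundant member, for RPL35A and RPL37A, which rose in every line, for RPL13A and RPL28, which differed between lines, and for RPL36A of a paralog pair. RPL13 and RPL9 had no such run within 5 bases of the start and are in lower case throughout.
RPS6, chr9:19380215-19380244, reverse strand: agttggccCTCTTTTCCgtggcgcctcgga
RPLP0, chr12:120201090-120201119, reverse strand: cgcgaggcCCTTCTCTCgccaggcgtcctc
RPL35A, chr3:197950182-197950211, forward strand: gcctcgtcCTTCTCTTaccgccatcttggc
RPL37A, chr2:216498836-216498865, forward strand: gtctcttcCTTTCTgggctcggacctaggt
RPL13A, chr19:49487600-49487629, forward strand: acctcctcCTTTTCCaagcggctgccgaag
RPL28, chr19:55385924-55385953, forward strand: tcgccttcCTCTTTCCgtctcaggtcgccg
RPL36A, chrX:101391003-101391032, forward strand: cgcggtttCTTTCTTTCCgcgccgatagcg
RPL13, chr16:89560649-89560678, forward strand: ctatcatcccagagtgcattgcggggccgc
RPL9, chr4:39458901-39458930, reverse strand: atgacgacagacgttctttctttgctgcgt

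The values are the normalized reads per kilobase of the deposited table, called signal here, and the sum over all rows, repeats left out, was 9909600.0 to 11727000.0 per library. Read counts were not part of the table, so the depth behind a value is unknown. STK11 was at 698 and 600.5 in HuH-28 with control siRNA and at 223 and 206 with LKB1 siRNA. Its fold change on the log2 scale was -1.59 ± 0.11 (SE) in HuH-28, with -1.68 ± 0.11 (SE) for RBE and -2.77 ± 0.11 (SE) for SSP-25. The summed signal of 8 biliary markers was 9462 to 50990.0 over the groups, but KRT19 was at 9.86 and 11 in the HuH-28 control libraries, and EPCAM was under 1 in both HuH-28 libraries with LKB1 siRNA. The 5 fibroblast genes summed to 43470.0 to 45060.0 in HuH-28, to 6581 to 6993 in SSP-25 with control siRNA, to 11000.0 to 11400.0 in SSP-25 with LKB1 siRNA, and to at most 78.0 in RBE. In SSP-25 nearly all of this sum was COL1A1, at 6952 and 6538 with control siRNA and 10950 and 11339 with LKB1 siRNA. The sum of 7 hepatocyte genes was 1144 to 1593 in RBE, mostly SERPINA1, with ALB and APOB under 1. It was at most 195.8 in HuH-28 and 17.64 in SSP-25. Endothelial sums reached at most 15.18 and leukocyte sums at most 29.37. The part of these differences in the results below was not tested.

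With LKB1 siRNA, the ribosomal protein mRNAs that passed the test in RBE and HuH-28 were all higher, whereas those that passed in SSP-25 moved both ways, and 57, 43 and 71 of the members did not pass in HuH-28, RBE and SSP-25. In HuH-28, 24 of the 81 members rose and 0 fell at an adjusted p under 0.05 (limma), where 14.3% of all 16146 genes tested rose and 15.5% fell. In RBE, 38 rose and 0 fell, against 22.1% and 18.6% of all genes. In SSP-25, 5 rose and 5 fell, against 21.1% and 21.1%. The median log2 fold change over the members was 0.25 in HuH-28, 0.30 in RBE and nearest to 0, at 0.05, in SSP-25, and over all genes tested it was 0.0076, 0.013 and 0.018. Averaged over the lines, 45 members rose and 0 fell, where 27.3% and 25.2% of all genes did, and the median over members was 0.20. At an unadjusted p under 0.05, 38, 51 and 6 members were higher and 0, 0 and 6 lower, lines in the same order, and 48 were higher and 0 lower on average. With the test number as a replicate block, which left 3 residual degrees of freedom in place of 6, the calls made without it were kept and more were added. The block gave 56 higher in HuH-28, where 18.1% of all genes were higher and 19.7% lower, and 0 lower. It gave 62 higher and 1 lower in RBE against 25.5% and 21.9%, 17 and 9 for SSP-25 against 24.2% and 24.6%, and 63 and 3 on average against 30.0% and 27.7%. With HuH-28 fitted alone, 2 members were higher there, where 4.80% of all genes were. Single libraries moved these counts: the 24 of HuH-28 became 15 without its control replicate 1, 14 without its LKB1 replicate 2 and 37 without its LKB1 replicate 1, and the 38 of RBE became 20 without its control replicate 2 or its LKB1 replicate 2. In SSP-25, leaving out any one of its libraries left 1 to 2 members higher and 2 to 3 lower. Scaling mattered too: by quantile normalization 11 rose in HuH-28, and in SSP-25 15 rose and 5 fell, or 17 and 3 when libraries were scaled to the summed signal of all other genes. Shares of all genes called were not taken for these scalings or for fits without a library. Those counts thus cannot be set against a background.

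**Figure D1:**
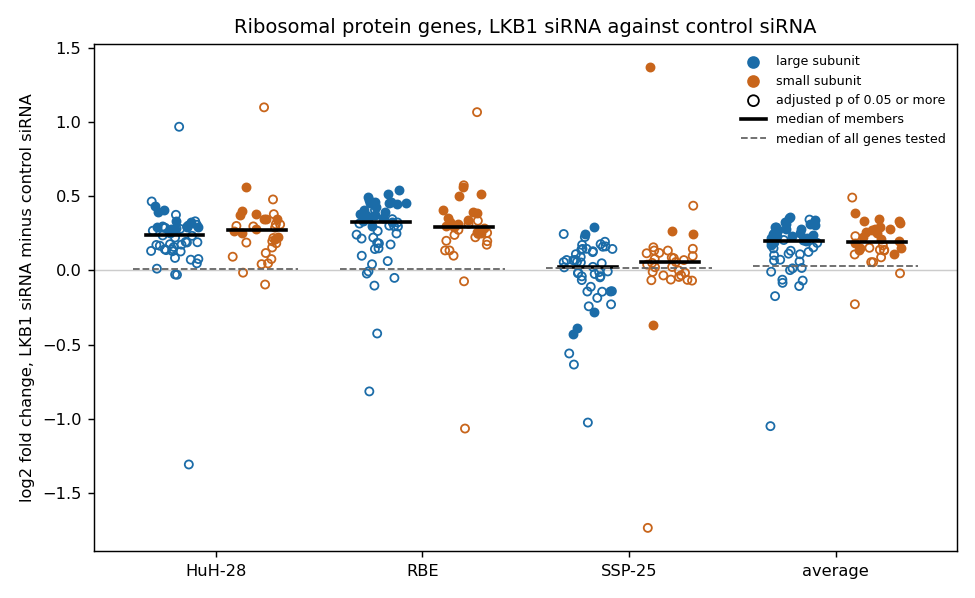
Log2 fold change of each ribosomal protein gene, LKB1 siRNA against control siRNA in each of the lines and averaged over the lines. Each point is a gene, filled where the adjusted p was under 0.05, black bars are the medians of the large and small subunit and dashed lines the medians of all genes tested. The medians lie near 0.24 to 0.32 in HuH-28 and RBE and near 0 in SSP-25.

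Both subunits were part of this. Of the 49 large subunit genes, 12 rose in HuH-28 and 23 in RBE, while SSP-25 had 2 that rose and 4 that fell. Of the 32 small subunit genes, 12 rose in HuH-28 and 15 in RBE, while SSP-25 had 3 that rose and 1 that fell. The median log2 fold change was 0.24 for the large and 0.27 for the small subunit in HuH-28. RBE had medians of 0.32 and 0.29, and SSP-25 of 0.024 and 0.054. The large subunit median of HuH-28 was 0.0889 without its control replicate 1, 0.103 without its LKB1 replicate 2 and 0.11 by quantile normalization. On average over the lines 26 large and 19 small subunit genes rose, where 27.3% of all genes did. With the replicate block 33 large and 23 small subunit genes rose in HuH-28, 37 and 25 rose in RBE, and SSP-25 had 11 and 6 that rose and 8 and 1 that fell. Among all genes the block gave 18.1, 25.5 and 24.2% that rose in this order and 24.6% that fell in SSP-25. The SSP-25 counts of both subunits again lay below these shares.

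The members as a group held a larger share of the libraries with LKB1 siRNA in every line. In HuH-28 they made up 7.55 and 8.14% of the summed signal with control siRNA and 8.51 and 9.25% with LKB1 siRNA. In RBE the shares were 12.05 and 11.64% against 14.45 and 14.43%. In SSP-25 they were 9.32 and 9.32% against 10.02 and 9.97%. The 2 siRNA groups did not overlap in any line, and RBE held the highest share. In SSP-25 the median member, unlike the sum, was lower with LKB1 siRNA, at 10798 and 10328 against 10134 and 9972. The ratio of the large to the small subunit sum was 1.35 to 1.40 in HuH-28, 1.59 to 1.62 in RBE and between these, at 1.48 to 1.51, in SSP-25, and the lines did not overlap in it.

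**Figure D2:**
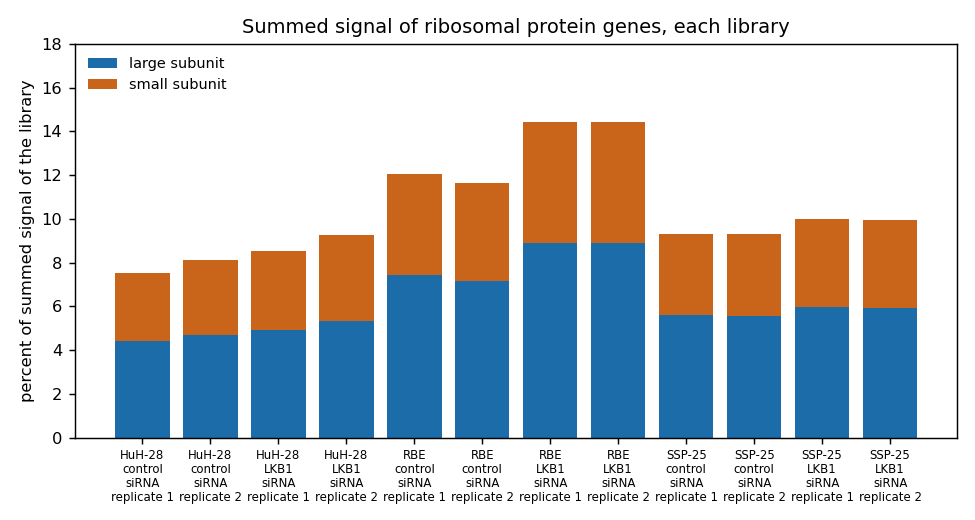
Summed signal of the ribosomal protein genes as a percent of the summed signal of each of the 12 libraries, split into large and small subunit. The RBE libraries with LKB1 siRNA, at 14.45 and 14.43%, are the tallest and the HuH-28 libraries with control siRNA the shortest.

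Counted by libraries alone, the LKB1 siRNA libraries were both above both control libraries for 37 members in HuH-28, where 28.7% of all genes did so, for 67 in RBE against 38.6%, and for 37 in SSP-25 against 37.8%. They were both below for 0 members in HuH-28 against 28.4% of all genes, for 4 in RBE against 33.7%, and for 22 in SSP-25 against 36.1%. For 20 members they were above in every line, which held for 13.6% of all genes.

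Members that passed the test upward in each of the 3 lines included RPL35A and RPL37A of the large subunit and RPS29 of the small subunit. RPL35A was at 16038 and 15967 with control siRNA and 19484 and 19678 with LKB1 siRNA in HuH-28. It was at 14547 and 13737 against 17872 and 18403 in RBE and at 16954 and 16768 against 20923 and 20363 in SSP-25. Its log2 fold change was 0.29 ± 0.07 (SE), 0.36 ± 0.07 (SE) and 0.29 ± 0.07 (SE), with adjusted p of 0.00828, 0.00171 and 0.00547. The groups did not overlap in any line. RPL37A was at 12837 and 13337 against 15513 and 16841 in HuH-28. RBE had 32587 and 31615 against 42948 and 45419.7 and SSP-25 18929 and 19333 against 23342 and 22136, control siRNA first. Averaged over the lines, its log2 fold change was 0.34 ± 0.05 (SE) (adjusted p = 0.000135). RPS29 was at 3288 and 3577 against 4016 and 4301 in HuH-28. The RBE libraries were at 3565 and 3169 against 4017 and 4228, and those of SSP-25 at 3888 and 3777 against 4542 and 4557. RPS29 rose by 0.27 ± 0.04 (SE) on the log2 scale on average. For each of these 3 genes the siRNA groups did not overlap in any line. With quantile normalization RPL35A and RPL37A did not pass in HuH-28, at 0.13 and 0.095, nor with that line fitted alone, and RPL37A did not pass there without control replicate 1 or LKB1 replicate 2. Without one of the SSP-25 libraries RPL37A and RPS29 did not pass in SSP-25, whichever library it was.

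There were 12 members that differed between lines in their response to LKB1 siRNA, a smaller share than the 28.2% of all genes that did. They were 8 of the large and 4 of the small subunit, and leaving out any one RBE or SSP-25 library left 4 to 7 members that differed, 4 to 6 of them among the 12. With the replicate block 47 differed, the 12 included, a larger share than the 39.7% of all genes that did. RPL13, whose gene also hosts small nucleolar RNAs, had the smallest p without the block. Its libraries were at 2817 and 2832 with control siRNA and 3477 and 3392 with LKB1 siRNA in HuH-28. In RBE the values were 4661 and 4392 against 6099 and 6232, and SSP-25 had 3022 and 3091 against 2838 and 2716. It rose by 0.28 ± 0.05 (SE) and 0.45 ± 0.05 (SE) on the log2 scale in HuH-28 and RBE and fell by 0.14 in SSP-25, with an adjusted p of 0.00102 for the difference between lines. The fall in SSP-25 was the least firm part, and passed under neither quantile normalization, at -0.11, nor scaling to all other genes, at -0.062, nor without any one of the RBE or SSP-25 libraries. RPL13A, a large subunit protein with a known role outside the ribosome, was at 9900.5 and 11221 against 10424 and 11791 in HuH-28. It was at 12493 and 11827 against 16034 and 16198 in RBE and at 8936 and 8604 against 6431 and 6593 in SSP-25. Its libraries overlapped in HuH-28, rose without overlap in RBE and fell without overlap in SSP-25, where the log2 fold change was -0.43 ± 0.08 (SE) (adjusted p = 0.00211).

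RPS2, a protein of the small subunit near the mRNA entry, showed the same reversal. Its libraries were at 4778 and 4594 against 7019 and 6804 in HuH-28. RBE had 5596 and 4368 against 6794 and 7853 and SSP-25 5329 and 4903 against 4162 and 3777. The log2 fold change was 0.56 ± 0.11 (SE) and 0.56 ± 0.11 (SE) in HuH-28 and RBE, the largest among the called members of HuH-28 and RBE, and -0.37 ± 0.11 (SE) in SSP-25 (adjusted p = 0.026). The fall of RPS2 did not pass without the SSP-25 control replicate 1 or 2 or LKB1 replicate 2, at -0.31, -0.43 and -0.30, nor with no filter, with no trend or scaled to all other genes, at -0.29. RPL9, of the large subunit, was at 10798 and 11559 against 8648 and 8422 in SSP-25 and fell by 0.39 there, and its libraries overlapped in HuH-28. RPL10, a protein that joins the large subunit late in its assembly, was at 8368 and 8329 against 6876 and 6856 in SSP-25, and its log2 fold change was -0.28 ± 0.08 (SE) (adjusted p = 0.0226), with -0.0064 ± 0.08 (SE) in RBE, but its difference between lines did not pass (adjusted p = 0.169, or 0.0103 with the replicate block). Without any one SSP-25 library RPL10 did not pass there, and without control replicate 2 neither did RPL9, at -0.34. RPL28 and RPS28 rose in HuH-28 and RBE, by 0.40 ± 0.07 (SE) and 0.54 ± 0.07 (SE) for RPL28, and neither passed in SSP-25, though RPS28 did with the replicate block (adjusted p = 0.0144). The others that differed between lines included RPL14, RPL36, RPS9, RPL18 and RPS21.

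**Figure D3:**
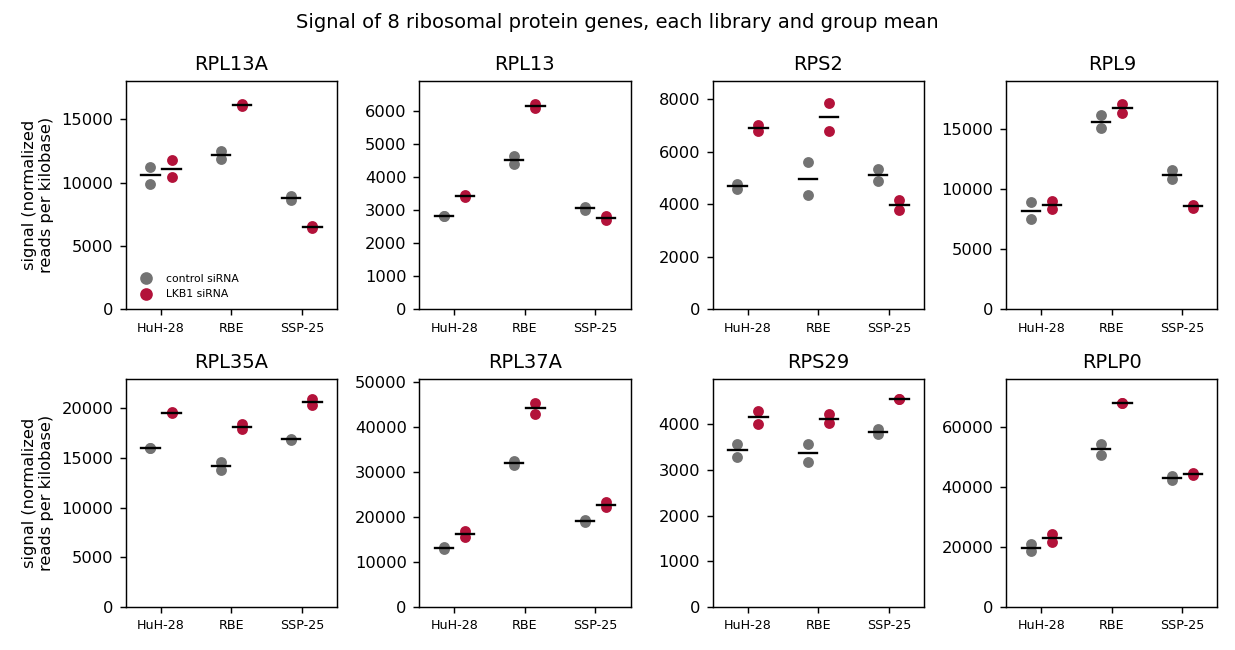
Signal of 8 members in each library by line and siRNA, with bars at the group means. RPL13A, RPL13, RPS2 and RPL9 of the upper row fall with LKB1 siRNA in SSP-25, and RPL35A, RPL37A and RPS29 of the lower row rise in every line, where the RPLP0 libraries with LKB1 siRNA also lie above the controls.

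By role, the P stalk binds the elongation factors and is made of RPLP0, RPLP1 and RPLP2 with RPL12 at its base. All 4 rose on average, 3 of 4 in RBE, 1 of 4 in HuH-28 and 0 of 4 in SSP-25, where 27.3, 22.1, 14.3 and 21.1% of all genes rose. With the replicate block all 4 passed in HuH-28 and in RBE and 1 passed in SSP-25. The block gave 18.1, 25.5 and 24.2% of all genes as higher in HuH-28, RBE and SSP-25. RPLP0 was at 18435 and 20955 against 21565 and 24368 in HuH-28. The RBE libraries were at 54279 and 50608 against 67779 and 67863, and those of SSP-25 at 43513 and 42117 against 44646 and 43911. Its log2 fold change averaged 0.21 ± 0.06 (SE) (adjusted p = 0.0114). RPLP1, the partner of RPLP2 in the stalk, averaged 0.27 ± 0.06 (SE), RPLP2 0.22 ± 0.04 (SE) and RPL12 0.25 ± 0.07 (SE). The stalk genes were above the controls without overlap in all lines, except RPL12 in HuH-28, where the libraries overlapped.

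RPL5 and RPL11 bind 5S ribosomal RNA and can hold the p53 regulator MDM2. Neither passed the test in any line. With the replicate block RPL5 passed in RBE (adjusted p = 0.00713), and RPL11 passed in RBE and HuH-28 (adjusted p = 0.00142 and 0.00275), and both also passed in RBE scaled to all other genes. RPL5 was at 11599 and 13984 against 13064 and 15803 in HuH-28. In RBE the values were 7599 and 6587 against 8520.2 and 8867, and SSP-25 had 11805 and 11959.6 against 10636 and 10884, and RPL5 was thus higher in RBE and lower in SSP-25 without overlap. RPL11 was at 18035 and 24434 against 23297 and 28987 in HuH-28. It was at 18891 and 17847 against 23863 and 22127 in RBE and at 33314 and 32229 against 32584 and 32279.7 in SSP-25. RPS6, the member whose protein the S6 kinases phosphorylate, was at 18765 and 22030.3 against 20581 and 23649, 23855 and 22948 against 28854 and 27743 and 42081 and 41343 against 39904 and 39662 in the same order, with a log2 fold change of 0.27 ± 0.10 (SE) in RBE (adjusted p = 0.0554), and did not pass in any line, while 10 of the alternatives, the replicate block among them (adjusted p = 0.00157), gave a call in RBE. RPS27A, made as a fusion with ubiquitin, averaged 0.14 ± 0.08 (SE) (adjusted p = 0.167, or 0.00866 with the replicate block).

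Around the exit of the nascent chain lie 11 members, of which 6 rose on average, 4 in RBE, 1 in HuH-28 and 0 in SSP-25. Against the shares of all genes given for the stalk, the count in HuH-28 and in SSP-25 was below the background. The replicate block gave 7 in HuH-28, 9 for RBE and 3 for SSP-25, against 18.1, 25.5 and 24.2% of all genes. The blocked SSP-25 count was thus near the background. RPL35, at the rim of the exit, was at 16539 and 16030.0 against 21565 and 21325 in HuH-28. RBE had 35473 and 34271 against 47840.1 and 50511 and SSP-25 27742 and 28338 against 32386 and 30311. RPL35 rose by 0.35 ± 0.05 (SE) on average. RPL29 rose by 0.52 ± 0.10 (SE) in RBE. The head of the small subunit, which holds the ends of the tRNA and part of the mRNA channel, has 14 members in the list used. Of these 11 rose on average, 8 in RBE, 7 in HuH-28 and 1 in SSP-25, the last below the 21.1% of all genes. With the replicate block 12 rose in RBE, 11 in HuH-28 and 4 in SSP-25, the last near the 24.2% of all genes. RPS3, at the mRNA entry, was at 3856 and 4439.6 against 4879.7 and 5697, 9524 and 8622 against 12944 and 12937 and 11263 and 10649 against 12147 and 12093 and rose by 0.34 ± 0.05 (SE) on average. RPS15 was at 14308 and 12029 against 18926 and 15922 in HuH-28 and RPS10 averaged 0.39 ± 0.13 (SE) (adjusted p = 0.0325), a call lost with no filter, with no trend and without any one of 7 libraries.

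Only RPSA in SSP-25 was called with a log2 fold change above 1. RPSA, the laminin receptor homologue of the small subunit, was at 489.9 and 1337 against 1584 and 2773 in SSP-25, with a log2 fold change of 1.37 ± 0.45 (SE) (adjusted p = 0.0335). The groups did not overlap, but the control libraries differed by 1.45 on the log2 scale, among the widest gaps between duplicates. RPSA did not pass without control replicate 1, at 0.65, or without LKB1 replicate 2, at 0.97, nor with no filter, no trend or the line fitted alone. In HuH-28 and RBE the values were 1748 and 1980.3 against 1532 and 1981 and 1157 and 2094 against 2142 and 1487, which overlap.

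Duplicates of 6 members differed by more than 1 on the log2 scale in at least one group: RPL21, RPS27, RPS26, RPSA, RPL3L and RPL39L. RPL21 stood at 3062 and 408 with control siRNA and 316 and 645 with LKB1 siRNA in HuH-28, a gap of 2.91 between the control libraries. Its average log2 fold change of -1.05 ± 0.50 (SE) did not pass (adjusted p = 0.109). By contrast, the study lists RPL21 among its differentially expressed genes, as lower with LKB1 siRNA in each of the lines. The median of the widest gap per member was 0.274. Because these genes have many processed copies, 1 transcript per gene was cut into windows of 40 bases, the length of the reads. It was the transcript with the oldest RefSeq mRNA number, and matches on either strand were counted. Its length varied widely, from 257 windows for RPS29 to 7647 for RPL37, so the shares depend on this choice of transcript. A median of 35.9% of windows also occurred in transcripts of other annotated genes, and 1133 annotated pseudogenes were named for members. The share of windows and the widest gap had a Spearman rho of 0.215 over 81 members, given as a description. Of the 53 members with at most 50% of windows shared, 19 rose in HuH-28, 28 rose in RBE and 4 rose in SSP-25, and of the 28 others 5, 10 and 1 did. The shares over all genes tested were 14.3, 22.1 and 21.1%, and both sets were below the last in SSP-25. Among the members named above, the share of windows was 74.7% for RPS2, 90.3% for RPL9, 70.7% for RPSA, 87.4% for RPS10 and 77.8% for RPL10, against 4.47% for RPL35A. It was only 8.28% for RPL13 and 45.4% for RPL13A, which also fell in SSP-25. RPL12 and RPLP0, which rose on average, were at 62.8% and 57.4%. Counting that splits reads between copies could alter the values of members with a high share, and whether it did was not tested.

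Split by the start of the transcript, the 42 members with the pyrimidine start included 14 that rose in HuH-28, 23 that rose in RBE and 3 that rose in SSP-25, and the 22 with an entry but no such start included 5, 8 and 1 in the same order. Of all genes tested 14.3, 22.1 and 21.1% rose in this order, and both classes were below that share in SSP-25. The medians of the log2 fold change were 0.27, 0.33 and 0.07 with the start, and 0.17, 0.25 and -0.0078 without it. With up to 5 bases to either side allowed, 50 members had such a start. The class of 22 thus holds members with a slightly shifted run, RPS28, RPL3 and RPL10A among them. The difference between the classes was not tested.

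With control siRNA, 55 of the 81 members differed between HuH-28 and RBE, 52 between HuH-28 and SSP-25 and 53 between RBE and SSP-25, where 77.3, 74.8 and 73.1% of all genes did, so the members did not stand above the background. Between HuH-28 and RBE, 10 members were higher in HuH-28 and 45 were lower, where 39.2% of all genes were higher and 38.1% lower. Between HuH-28 and SSP-25, 17 were higher and 35 lower, against 38.0% and 36.8%. Between RBE and SSP-25, 38 were higher in RBE and 15 lower, against 35.9% and 37.2%. The median log2 difference was -0.40, -0.21 and 0.25 in this order. HuH-28 minus RBE had a median of -0.49 over the large and -0.25 over the small subunit.

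The widest range among group means with control siRNA was that of RPL39L, a paralog of RPL39 known from testis, at 68.1 and 139.7 in HuH-28, at 349.5 and 345 in RBE, and highest, at 916 and 897, in SSP-25. The lines did not overlap, and the log2 difference was -3.21 ± 0.34 (SE) for HuH-28 minus SSP-25. RPL12 was at 3354 and 4185, 11687 and 10499 and 6723 and 7126, with -1.56 ± 0.11 (SE) for HuH-28 minus RBE. RPLP0 followed the same order, at 18435 and 20955, 54279 and 50608 and 43513 and 42117. RPL17, near the exit, was lowest in SSP-25, at 3629 and 5466, 3831 and 3637 and 1619 and 1752, and RPL17 did not differ between HuH-28 and RBE at the threshold (adjusted p = 0.246, or 0.0114 with the replicate block). Among the members named by rule, RPS2 had the narrowest range of group means with control siRNA, 0.127 on the log2 scale. Its log2 difference for HuH-28 minus RBE was -0.077 ± 0.11 (SE).

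**Figure D4:**
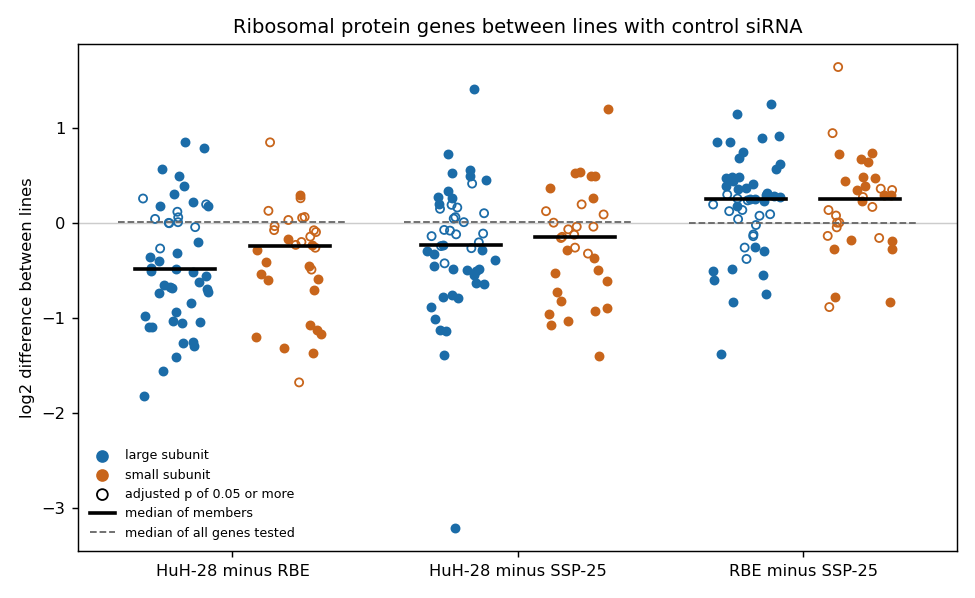
Log2 difference of each member between pairs of lines with control siRNA. Each point is a gene, filled where the adjusted p was under 0.05, with black bars at the medians of each subunit and dashed lines at the medians of all genes tested, and most points lie below 0 in HuH-28 minus RBE and above 0 in RBE minus SSP-25.

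RPLP0, RPLP1 and RPS18 had the highest mean signal over all libraries, and RPL3L, RPL39L and RPL36A the lowest. Signal is divided by transcript length, but copies of a gene may share reads, so ranks by level and shares of a pair are only approximate. Whether shared reads altered them was not tested. RPL3L, a muscle paralog of RPL3, stayed between 0.025 and 2.06 in every library, so no fold change is read from it. RPL36A was at 266 and 244 with control siRNA and 360.0 and 329 with LKB1 siRNA in HuH-28 and 587 and 508 against 779 and 743 in RBE, and rose by 0.36 ± 0.04 (SE) on average.

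In all, 8 pairs of paralogs were compared by the ratio of the second gene to the first, 4 of them with a second gene outside the rule. None passed with LKB1 siRNA, and 2 had an unadjusted p under 0.05 (two-sided exact permutation within lines, 216 arrangements, p adjusted over 8 pairs), where the smallest p possible was 0.0093, so that a single pair could not pass after adjustment. RPL36AL, the autosomal copy of RPL36A, made up 95.3% ± 1.13 (SD, n = 2) of the pair in HuH-28 with control siRNA and 93.6% ± 1.41 with LKB1 siRNA. In RBE it was 89.8% ± 1.2 against 85.9% ± 0.212, and in SSP-25 91.1% against 88.3%. The log2 ratio fell by 0.47 on average and was lower in each line (exact p = 0.0185, adjusted 0.148).

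RPL39L made up 0.782% ± 0.207 (SD, n = 2) of the RPL39 pair in HuH-28, 4.54% ± 0.134 in RBE and most, 9.38% ± 0.311, in SSP-25 with control siRNA, and 0.855% ± 0.202, 2.6% ± 0.127 and 5.97% ± 0.488 with LKB1 siRNA. In RBE and SSP-25 the groups did not overlap, and in HuH-28 they did (log2 ratio -0.47 on average, exact p = 0.0556, adjusted 0.148). RPL7L1, a factor of ribosome assembly named for RPL7, had a log2 ratio of -0.79 (exact p = 0.0463, adjusted 0.148). RPL22L1 made up 2.25% ± 0.205 of the RPL22 pair in HuH-28, 33.9% ± 0.212 in RBE and again less, 6.36% ± 0.354, in SSP-25 with control siRNA, and 2.38% ± 0.361, 26.4% ± 0.141 and 5.62% ± 0.0778 in the same order with LKB1 siRNA. Adjusted p for the other pairs was 0.222 to 0.861.

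**Figure D5:**
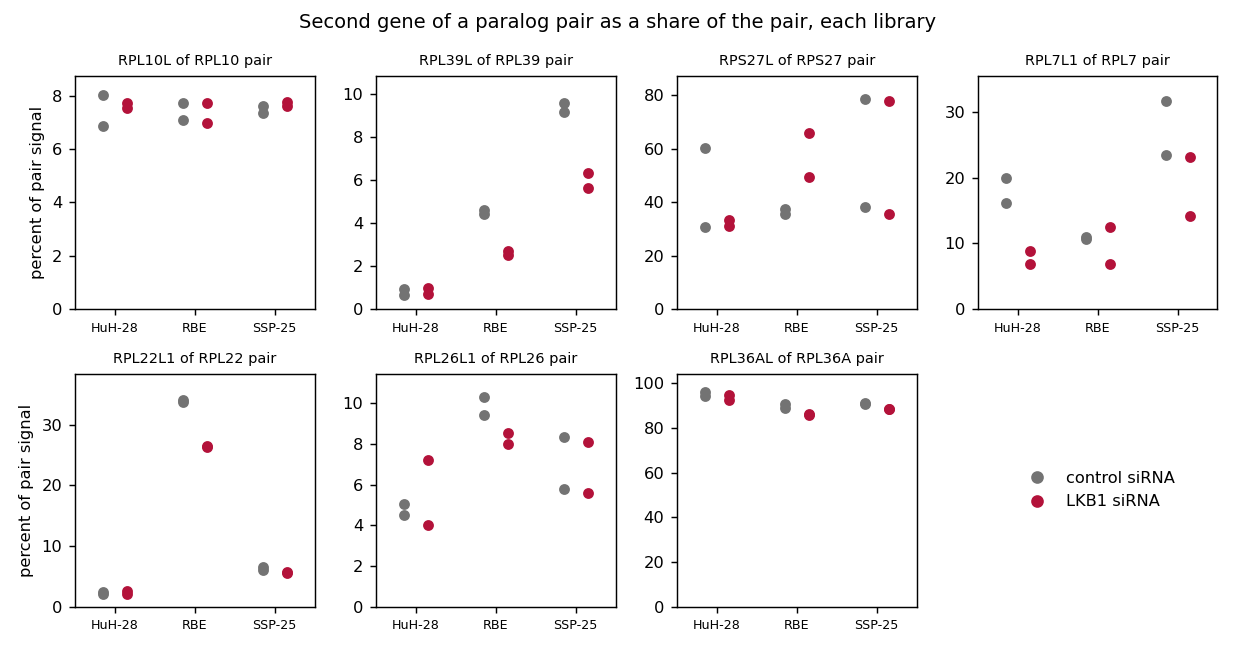
Signal of the second gene of 7 paralog pairs as a percent of the pair, in each library, by line and siRNA (RPL3L is left out because its signal was near 0). RPL39L lies higher in SSP-25 than in RBE and HuH-28, and RPL22L1 lies highest in RBE.

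Other genes of the same machinery moved in both directions. FAU, which encodes a ribosomal protein fused to a ubiquitin-like part, rose by 0.20 ± 0.04 (SE) on average. On average 27.3% of all genes rose and 25.2% fell, and the average counts of the lists are to be read against these shares. Of 22 elongation and other TOP genes 7 rose and 1 fell, with EEF2, the translocase, at 14618 and 13938 against 20247 and 20155 in RBE and EIF3F and EEF1D also higher, EIF3F by 0.66 ± 0.04 (SE). Of 99 ribosome biogenesis factors 34 rose and 31 fell on average. By line 25 rose and 6 fell in HuH-28, 33 rose and 14 fell in RBE, and in SSP-25 only 11 rose and 40 fell. These counts have their own backgrounds. For HuH-28, 14.3% of all genes were higher and 15.5% lower. The RBE shares were 22.1% higher and 18.6% lower, while SSP-25 had 21.1% for either direction. PWP2 and TSR1, factors of small subunit assembly, rose by 0.62 ± 0.04 (SE) and 0.40 ± 0.03 (SE), and NVL, an ATPase of large subunit assembly, fell by 0.63. Of 31 initiation factors 5 rose and 10 fell, with EIF4A1, the cap-complex helicase, at -0.78 ± 0.06 (SE), EIF3C at -0.46 ± 0.03 (SE) and EIF5B at 0.30 ± 0.03 (SE). Of 14 genes of RNA polymerase I 5 rose and 4 fell, with POLR1A, its largest subunit, at 0.88 ± 0.06 (SE), RRN3 at -0.42 ± 0.03 (SE) and CD3EAP at 0.36 ± 0.03 (SE). Of 19 S6 kinase and TOP regulator genes 4 rose and 7 fell, with RPTOR, the mTORC1 scaffold, at 0.62 ± 0.07 (SE), RPS6KA4 at 0.55 ± 0.06 (SE) and LARP4 at -0.47 ± 0.04 (SE). Of the 4 paralogs outside the rule 0 rose and RPL7L1 fell, by 0.45.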

How the data were processed

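The authors deposited one table of normalized reads per kilobase, a signal that is neither counts nor a log value, for 12 libraries of 40-base single reads made from 500 ng of total RNA with the TruSeq RNA kit V2. The study's methods name NextGENe, an NCBI human build and RefSeq mRNA. Per the submitters' notes, TopHat 1.2.0, edgeR and the build hg19 were used, so the tool behind the table could not be settled, and the steps of the normalization are not given in the sources used here. Copies of a gene with near-identical sequence may share reads.

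Samples were grouped by their labels. A figure legend of the study names the numbers 1 and 2 as its tests, so they were taken to pair the libraries of a line. Blocked values stand beside several of the results they change. Deviations of same-numbered libraries correlated across genes at 0.217 for HuH-28, 0.0216 for RBE and -0.00687 for SSP-25 (0.431, 0.00227 and 0.0325 at a mean signal of at least 20), so the data showed the pairing in HuH-28 only. Of 18815 rows, 23 that repeated a symbol with its values were dropped, and values under 1e-06 were set to 0. A gene entered when 2 or more libraries reached a signal of 1, which left 16146 for limma 3.58.1 in R 4.3.3 on log2(signal + 0.5), with 6 group means, empirical Bayes moderation with a trend, and p-values adjusted by Benjamini-Hochberg across all tested genes (threshold 0.05). A fold change is thus on the log2(value + pseudocount) scale. LKB1 siRNA was set against control siRNA line by line and averaged over lines, an F test asked whether the 3 responses differed, and pairs of lines were compared with control siRNA. Paralog ratios were tested in Python 3.11.15 with an exact permutation. The script was tested on simulated data with known fold changes. Depth is unknown, so precision rests on the duplicates.

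Genes were named by rule: called with an absolute log2 fold change above 1, the 4 largest and 4 smallest called changes in each contrast, the 6 smallest p of the difference between lines, the 4 widest ranges between lines, the 3 highest and 3 lowest signals, paralog pairs, the P stalk, 5S particle and ubiquitin fusion genes, RPS6, STK11, and the 3 smallest average p of each list. RPS29, RPL21 and the later members named among the 12 that differed between lines were named after their values were seen. Some genes that the rule names are not reported here. The members and all lists were chosen with earlier results of these data known. Alternatives were pseudocounts of 0.1 and 10, no filter, a mean signal of at least 5, quantile normalization, median of ratios scaling, scaling to all other genes, no trend, each line alone, a replicate block (the test number within a line) and leaving out each library. Transcripts and positions came from GENCODE v29, and start sequences from RefSeq (GRCh38.p14).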

Additional observations from a re-analysis of the deposited data

Results flagged for a closer look

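Against 28.2% of all genes, a smaller share of the members, 12 of 81, differed between the lines in their response to LKB1 siRNA (F test of the limma fit). Among those reported here, the adjusted p was 0.00102 for RPL13, 0.00225 for RPL13A, 0.00355 for RPS2 and 0.00765 for RPL28. It was 0.0273 for RPL9, 0.0344 for RPS28, 0.0379 for RPL14 and 0.0394 for RPL36. It was 0.0401 for RPS9, 0.0423 for RPL18 and 0.0457 for RPS21. In SSP-25, RPL13A, RPL13, RPS2 and RPL9 fell at the threshold, and none of the other 8 passed there in either direction without the replicate block. With the replicate block 47 members differed between lines, a larger share than the 39.7% of all genes that did. Groups of 2 libraries were too small for a test of outlying libraries.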

How the results depend on the processing

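Duplicates and an unknown depth limit these results, and 2 libraries against 2 within a line allow no exact p under 0.33. Of 57 called fold changes of named members, 28 passed under every alternative, and over 3215 values 122 lost and 167 gained a call and 0 reversed one, while 79 values without a call changed sign. By quantile normalization 11 members were higher and 1 lower in HuH-28, 1 was lower in RBE, 15 were higher in SSP-25 and 3 lower on average, and the large and small subunit medians were 0.11 and 0.133 for HuH-28, 0.204 and 0.161 for RBE, then 0.0722 and 0.107 for SSP-25. Scaled to all other genes, 17 were higher and 3 lower in SSP-25 and 1 lower on average, with medians of 0.101 and 0.131 in SSP-25. The small subunit median there was 0.0676 by median of ratios scaling, and 3 members were lower without a trend. With each line fitted alone, on fewer degrees of freedom, 2 were higher in HuH-28, 1 lower in RBE, and 13 higher and 9 lower in SSP-25. Among members with at most 50% of windows shared, an alternative added after seeing the data, 2 were lower in SSP-25. With a replicate block, 56 were higher in HuH-28, 62 higher and 1 lower in RBE, 17 higher and 9 lower in SSP-25, 3 lower on average, and 47 differed between lines. The replicate block lost none of the calls made without it. Leaving out 1 library at a time gave 14 to 37 members higher and 0 to 1 lower in HuH-28, 20 to 47 higher in RBE, 1 to 5 higher and 2 to 6 lower in SSP-25, 0 to 2 lower on average, and 4 to 18 that differed between lines. The same gave large subunit medians of 0.0889 to 0.324 in HuH-28 and -0.00148 to 0.0318 in SSP-25, which changed sign without the SSP-25 LKB1 siRNA replicate 1, and small subunit medians of 0.0368 to 0.0666 in SSP-25. Counts between lines with control siRNA stayed within 1.5 times under all alternatives run. Shares of all genes called were taken for the main fit, the replicate block and HuH-28 fitted alone, and not for the other alternatives. Except as stated, the cause was not tested.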
